A study of Homo sapiens with 60 samples.

Results

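The genes described here are 10 enzymes of serine, asparagine and folate metabolism, taken by name from the 60675 Ensembl gene IDs of the deposited count table: PHGDH, PSAT1, PSPH, SHMT1, SHMT2, MTHFD2, MTHFD1L, ALDH1L2, ASNS and PCK2. All 10 passed the filter on low counts in every fit, with between 415 (ALDH1L2) and 6895 (PSAT1) expected counts in the library where each of these was lowest. RNA was sequenced from A549, an established line of human lung adenocarcinoma cells, after 24 h with a herbal extract or with DMSO vehicle. The 60 libraries fell into 25 groups: vehicle (n = 3) and 8 extracts at 3 doses each. Sayeok-tang (n = 3 per dose) and Bojungikgi-tang (n = 2 per dose) were water extracts of multi-herb formulas, given at 500, 100 and 20 µg/mL. The other extracts were made with ethanol: Zingiberis Rhizoma Recens (called fresh ginger below), Zingiberis Rhizoma (dried ginger) and Pinelliae Tuber (Pinellia) at 500, 100 and 20 µg/mL, and Scutellariae Radix (Scutellaria) at 190, 38 and 7.6 µg/mL, each with 3 libraries per dose. Coptidis Rhizoma (Coptis) at 110, 22 and 4.4 µg/mL and Zizyphi Fructus (Zizyphus) at 500, 100 and 20 µg/mL had 1 library per dose, so their values carry no test. Below, high, medium and low name the doses of an extract in that order. The high doses of Scutellaria and Coptis were set at the IC20, a concentration that partly inhibits the cells, because it lay below 500 µg/mL, so a given dose name is not a matched exposure between extracts. The sample labels give vehicle as 0.1% DMSO and the series text as 2%. Whether replicates were separate cultures is not given in the labels, and the p-values reflect only how these libraries vary, which may be technical. In bulk RNA, fewer cells of a type and less RNA per cell cannot be told apart.

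Library totals ran from 17.51 M to 38.54 M counts. Keratins 8 and 18 and the A549-typical enzymes AKR1B10, AKR1C2 and ALDH1A1 were abundant, and CDKN2A, a gene deleted in this line, was at 0 in all libraries. Leukocyte and endothelial markers (PTPRC, CD3E, LYZ, PECAM1, CDH5, VWF) reached at most 0.170 CPM (counts scaled to a common library total), and of the fibroblast markers COL1A1 lay at 17.5 to 36.1 CPM with DCN at most 0.149 CPM. The epithelial markers CDH1 and EPCAM were far below the keratins, at 21.1 to 38.6 CPM and 3.84 to 6.46 CPM. Over 51 pairs of replicates, a chi-square of the counts per degree of freedom ran from 1.85 to 13.8, so no pair agreed within sampling noise. Library 2 of fresh ginger at the medium dose and library 2 of fresh ginger at the low dose stood apart from their replicates. Without them the highest value was 8.51.

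Serine is made from the glycolytic intermediate 3-phosphoglycerate in 3 steps, by PHGDH, PSAT1 and PSPH. Serine hydroxymethyltransferase then moves a carbon unit from serine to tetrahydrofolate, in mitochondria (SHMT2) or in the cytosol (SHMT1), leaving glycine. In mitochondria MTHFD2, MTHFD1L and ALDH1L2 oxidise that unit to formate or carbon dioxide, and the formate feeds purine and thymidylate synthesis in the cytosol. ASNS makes asparagine from aspartate and glutamine, and PCK2 makes phosphoenolpyruvate from oxaloacetate in mitochondria. Several of these genes are textbook targets of the transcription factor ATF4, which is translated when amino acids are short or the endoplasmic reticulum is stressed and which binds C/EBP-ATF response elements.

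Promoter sequence was examined because most of these genes moved together. The motif searched was TGATGNAA (N is any base, other strand TTNCATCA), the core of C/EBP-ATF response elements, on both strands of RefSeq windows (GRCh38.p14) that run from 250 bases before to 50 bases after a start site. RefSeq windows were found for 7 of the 10 genes. The motif was in windows of 2 of them, ASNS and MTHFD1L, against 1217 of all 27305 genes (4.46%). Over all genes it was in 1270 of 35116 windows (3.62%). PHGDH, PSAT1, SHMT1, MTHFD2 and PCK2 had no match in these windows. The ASNS window (chr7:97872359-97872658, minus strand, 300 bases) is shown whole because ASNS was among the genes that changed most. Its match, in capitals, begins 68 bases before the start site. The MTHFD1L site is shown with 20 bases on either side (chr6:150866337-150866384, plus strand, motif in capitals) because MTHFD1L was among those that changed least. It is a single genomic site that lies in 3 overlapping windows.
ASNS: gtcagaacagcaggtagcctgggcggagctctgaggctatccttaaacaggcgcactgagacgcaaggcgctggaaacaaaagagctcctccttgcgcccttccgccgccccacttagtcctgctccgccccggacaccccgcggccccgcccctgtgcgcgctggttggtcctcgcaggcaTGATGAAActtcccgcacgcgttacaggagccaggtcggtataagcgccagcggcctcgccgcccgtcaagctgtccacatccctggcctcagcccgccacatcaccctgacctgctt
MTHFD1L: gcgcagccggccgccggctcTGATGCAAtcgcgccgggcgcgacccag
A match is a description of letters and not of binding.

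In vehicle, PSAT1 was the most abundant of the 10 transcripts per length and ALDH1L2 the least. On the scale of CPM (with library totals adjusted by TMM) per kb of principal transcript, PSAT1 stood at 167 ± 2.98 (SD, n = 3) and ALDH1L2 at 2.87 ± 0.267. MTHFD2 at 69.7 ± 2.37, SHMT2 at 58.0 ± 1.60 and ASNS at 53.9 ± 2.58 came next to PSAT1, with no overlap between MTHFD2 and SHMT2 and an order of SHMT2 and ASNS that rests on non-overlapping but close libraries. PHGDH (28.6 ± 0.408) and the cytosolic SHMT1 (27.8 ± 0.805) overlapped. PSPH followed at 19.3 ± 0.569, then PCK2 at 15.6 ± 0.437 and MTHFD1L at 15.0 ± 0.0793. The mitochondrial SHMT2 was thus higher per kb than its cytosolic counterpart SHMT1 in every vehicle library. The order of genes also rests on the 1 principal transcript taken for each, from 2.178 kb (PSPH) to 7.547 kb (ALDH1L2). The spread between libraries does not measure the error of that choice.

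**Figure D1:**
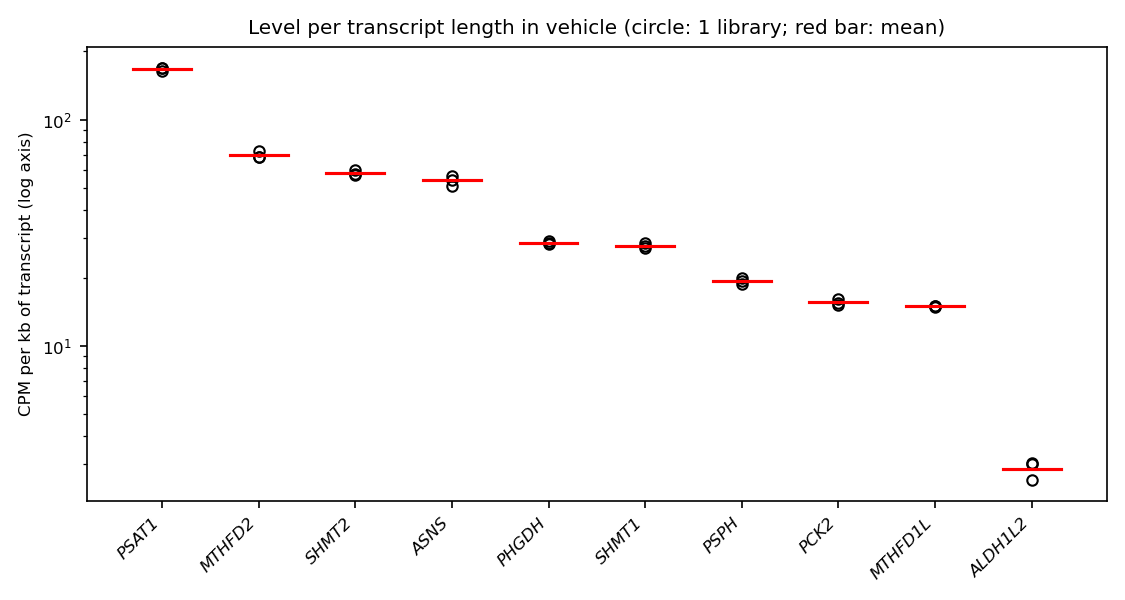
Level of each of the 10 genes in the 3 vehicle libraries as CPM per kb of principal transcript, on a log axis. Circles are libraries and red bars are means. PSAT1 is highest at 167 and ALDH1L2 lowest at 2.87.

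At the high doses of dried ginger and Scutellaria 9 of the 10 genes rose against vehicle, by log2 changes of 0.16 (MTHFD1L in dried ginger) to 1.95 (ALDH1L2 in dried ginger). The largest changes were in ALDH1L2, PCK2, ASNS and PHGDH in both. Fresh ginger and Sayeok-tang at the high dose raised 7 genes each: all except PSPH, MTHFD1L and SHMT1. Bojungikgi-tang and Pinellia at the same nominal dose raised ALDH1L2 alone. SHMT1, the cytosolic enzyme, was called as higher in none of the 18 comparisons with vehicle. A change is called at an adjusted p under 0.05 by edgeR's quasi-likelihood test with Benjamini-Hochberg adjustment over all genes tested, and changes are log2 against vehicle ± SE unless another contrast is named. The map of log2 changes shows these blocks, and shows ALDH1L2 above vehicle at every dose of every extract.

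**Figure D2:**
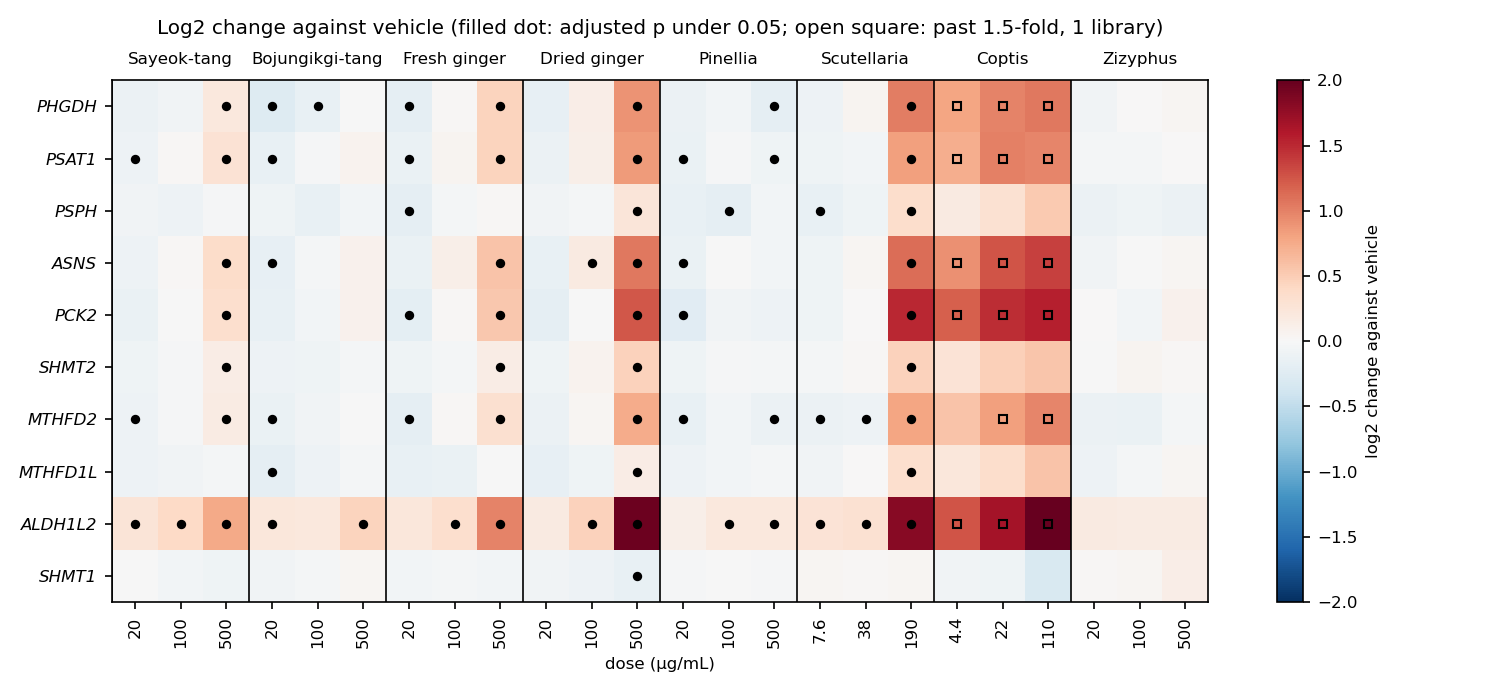
Log2 change against vehicle for the 10 genes (rows) at each dose of 8 extracts (columns, µg/mL). Filled dots mark adjusted p under 0.05, and open squares mark the single libraries of Coptis and Zizyphus past 1.5-fold. The red blocks stand at the high doses of dried ginger and Scutellaria and at all 3 doses of Coptis.

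Serine synthesis comes first. PHGDH (ENSG00000092621, chr1:119648411-119744226 on GRCh38, plus strand), the dehydrogenase that commits 3-phosphoglycerate to serine, was at 73.2, 73.6 and 75.2 CPM in the 3 vehicle libraries. It was at 135, 141 and 139 CPM with dried ginger at the high dose and at 157, 149 and 145 CPM with Scutellaria at the high dose. Neither group overlapped vehicle, and PHGDH rose by 0.90 ± 0.05 (adjusted p = 4.88e-15) and 1.02 ± 0.04 (adjusted p = 6.94e-24). Fresh ginger at the high dose gave 99.2, 101 and 102 CPM, a rise of 0.45 ± 0.05. Sayeok-tang gave 88.8, 85.2 and 83.5 CPM, a rise of 0.21 ± 0.04. With Pinellia at the high dose PHGDH fell by 0.17 ± 0.04 on the log2 scale, to 67.0, 62.6 and 67.5 CPM. With Bojungikgi-tang its libraries, at 74.2 and 73.4 CPM, lay within the vehicle range.

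PSAT1 (ENSG00000135069, chr9:78297143-78330093, plus strand), the aminotransferase of the second step, kept close to PHGDH. Its vehicle libraries held 368, 371 and 359 CPM. Dried ginger at the high dose brought it to 655, 647 and 674 CPM (0.85 ± 0.04, adjusted p = 8.52e-17) and Scutellaria to 637, 653 and 641 CPM (0.81 ± 0.03, adjusted p = 4.65e-24). Every one of these libraries was above all vehicle libraries. The rises with fresh ginger and Sayeok-tang were 0.45 ± 0.04 and 0.29 ± 0.03. PSPH (ENSG00000146733, chr7:56011051-56051604, minus strand), the phosphatase of the last step, moved less. It was at 42.2, 40.8 and 43.3 CPM in vehicle, at 50.5, 50.8 and 48.7 CPM with dried ginger at the high dose and at 55.9, 50.8 and 55.1 CPM with Scutellaria. Those differences were rises of 0.24 ± 0.04 (adjusted p = 6.37e-05) and 0.36 ± 0.04 (adjusted p = 1.51e-08). With fresh ginger and Sayeok-tang its log2 differences were 0.02 ± 0.05 and -0.03 ± 0.04 and were not called. So the first 2 enzymes of the serine route rose in 4 extracts and the last in 2, a difference in calls that was not itself tested.

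ASNS (ENSG00000070669, chr7:97852118-97872542, minus strand) was at 120, 132 and 128 CPM in vehicle. It was at 262, 257 and 276 CPM with dried ginger at the high dose, at 280, 279 and 267 CPM with Scutellaria, and at 188, 187 and 192 CPM with fresh ginger. All of these libraries lay above every vehicle library. The rises were 1.06 ± 0.04 (2.09-fold, adjusted p = 7.39e-18), 1.12 ± 0.03 (2.17-fold, adjusted p = 2.94e-26) and 0.58 ± 0.04 (1.49-fold, adjusted p = 1.15e-10). Sayeok-tang raised ASNS by 0.36 ± 0.03, to between 162 and 164 CPM. With Bojungikgi-tang and Pinellia its log2 differences of 0.09 ± 0.04 and -0.06 ± 0.03 were not called. Dried ginger at the medium dose also raised ASNS, by 0.18 ± 0.04 (adjusted p = 0.0105), the only call of ASNS at a medium dose among the 6 replicated extracts. Without library 3 of that dose, or without vehicle library 1, the count of called genes there went from 2 to 1 and ASNS was the call lost.

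PCK2 (ENSG00000100889, chr14:24094053-24110598, plus strand), the mitochondrial phosphoenolpyruvate carboxykinase, was at 37.9, 35.8 and 36.6 CPM in vehicle. Scutellaria at the high dose brought it to 107, 102 and 104 CPM and dried ginger to 86.7, 85.1 and 88.1 CPM. PCK2 rose 2.83-fold with Scutellaria (adjusted p = 2.19e-27) and 2.36-fold with dried ginger (log2 1.24 ± 0.05, adjusted p = 8.95e-17), with no overlap with vehicle. Fresh ginger at the high dose gave 54.5, 50.9 and 54.5 CPM (0.53 ± 0.06) and Sayeok-tang 45.7, 47.6 and 45.6 CPM (0.33 ± 0.04). PCK2 was not raised at any medium dose: its log2 differences there ran from -0.08 to 0.03 over 6 extracts.

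The mitochondrial folate enzymes divided. ALDH1L2 (ENSG00000136010, chr12:105019784-105084577, minus strand), the mitochondrial 10-formyltetrahydrofolate dehydrogenase, had the largest change of the 10 genes. It was at 22.7, 23.0 and 19.3 CPM in vehicle, at 82.7, 85.0 and 85.1 CPM with dried ginger at the high dose, and at 75.6, 77.4 and 77.5 CPM with Scutellaria. The rises were 1.95 ± 0.07 (3.88-fold, adjusted p = 6.94e-18) and 1.82 ± 0.06 (3.53-fold, adjusted p = 3.39e-26). Fresh ginger gave 43.9, 44.7 and 40.5 CPM, a rise of 0.99 ± 0.07, and Sayeok-tang 36.8, 37.1 and 36.7 CPM, a rise of 0.76 ± 0.06. Bojungikgi-tang gave 28.99 and 30.28 CPM, a rise of 0.44 ± 0.07. With Pinellia ALDH1L2 was at 27.0, 24.3 and 24.3 CPM, a rise of 0.21 ± 0.06 (adjusted p = 0.0224). That call is lost without vehicle library 3 (adjusted p = 0.200) and without Pinellia high library 1 (adjusted p = 0.174). C12orf45 overlaps ALDH1L2 on the opposite strand, and the library kit keeps strand.

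MTHFD2 (ENSG00000065911, chr2:74198562-74217565, plus strand), the dehydrogenase and cyclohydrolase of the mitochondrial route, was at 304, 323 and 305 CPM in vehicle. Dried ginger at the high dose gave 515, 512 and 533 CPM (a rise of 0.74 ± 0.04) and Scutellaria 545, 547 and 527 CPM (a rise of 0.80 ± 0.03), with no overlap with vehicle. SHMT2 (ENSG00000182199, chr12:57229327-57234935, plus strand) rose by 0.46 ± 0.04 in both, from 152, 145 and 144 CPM to 205, 199 and 204 CPM with dried ginger and to 200, 205 and 204 CPM with Scutellaria. Fresh ginger and Sayeok-tang raised MTHFD2 by 0.32 ± 0.04 and 0.16 ± 0.03 and SHMT2 by 0.14 ± 0.04 and 0.15 ± 0.03. MTHFD1L (ENSG00000120254, chr6:150865549-151101887, plus strand), the synthetase that releases mitochondrial formate, moved least of the mitochondrial enzymes. It was at 54.3, 53.8 and 54.4 CPM in vehicle, at 60.1, 57.8 and 62.9 CPM with dried ginger and at 69.7, 69.9 and 64.5 CPM with Scutellaria, rises of 0.16 ± 0.05 (adjusted p = 0.0154) and 0.33 ± 0.04 (adjusted p = 2.59e-08). The dried ginger call is lost without library 3 of that dose (adjusted p = 0.0964). With fresh ginger and Sayeok-tang the log2 differences of MTHFD1L were 0.00 ± 0.05 and -0.03 ± 0.04.

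SHMT1 (ENSG00000176974, chr17:18327860-18363563, minus strand), the cytosolic serine hydroxymethyltransferase, did not follow the others. It was at 66.5, 68.4 and 70.5 CPM in vehicle and at 60.7, 60.5 and 63.2 CPM with dried ginger at the high dose, a fall of 0.15 ± 0.04 on the log2 scale (adjusted p = 0.00584) with no overlap. With Scutellaria at the high dose it was at 68.7, 70.6 and 71.6 CPM, overlapping vehicle, with a log2 difference of 0.04 ± 0.04. That fall was the only call of SHMT1 in 18 comparisons with vehicle, whose differences ran from -0.15 to 0.04. SMCR8 overlaps SHMT1 on the opposite strand.

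**Figure D3:**
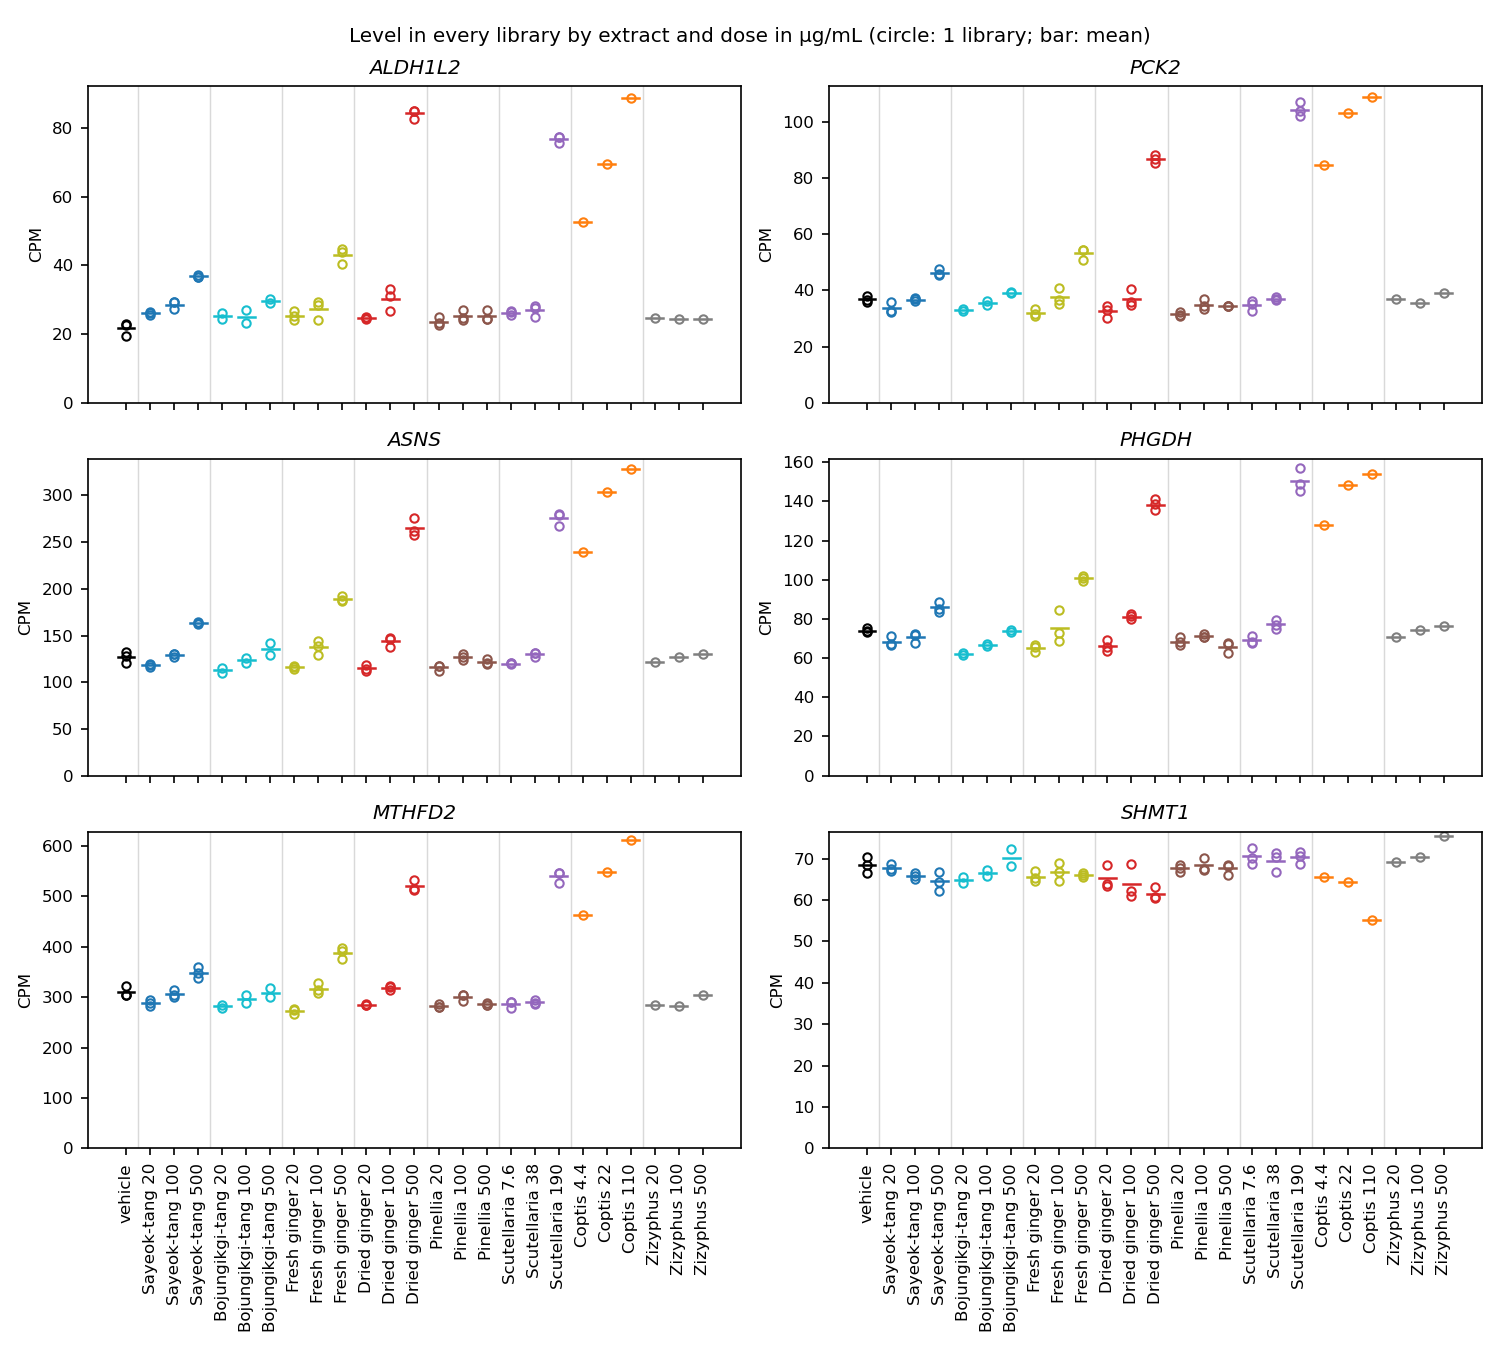
Level in CPM of 6 of the genes in each of the 60 libraries, by extract and dose (µg/mL). Circles are libraries and bars are group means, on axes that start at 0. ALDH1L2, PCK2, ASNS, PHGDH and MTHFD2 step up at the high doses of dried ginger and Scutellaria and at all Coptis doses, whereas SHMT1 stays between 55.3 and 75.5 CPM.

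The counts are read against the share of all genes called in the same comparison. With dried ginger at the high dose 39.2% of all genes tested were called and with Scutellaria 40.3%, so the number of genes called, 10 and 9 of 10, says less than their direction and size. The median log2 change of the 10 genes was 0.79 with dried ginger, beside 0.01 over all genes tested, and 0.81 with Scutellaria, beside 0.01. With fresh ginger at the high dose 7 of 10 were called, beside 13.4% of all genes, with a median of 0.38 beside 0.01. With Sayeok-tang at the high dose 7 of 10 were called, beside 18.9%, with a median of 0.19 beside 0.00. Bojungikgi-tang at the high dose had 1 call (ALDH1L2), beside 3.73%. Pinellia at the high dose had 4 calls, beside 8.93%: ALDH1L2 rose, and PHGDH, PSAT1 and MTHFD2 fell. The call of PSAT1 (adjusted p = 0.0492) is lost with the replicate block (adjusted p = 0.0505), in the fit of all 60 libraries (adjusted p = 0.0838) and without any 1 library other than vehicle library 3 (adjusted p = 0.0580 to 0.150). Without vehicle library 2 or Pinellia high library 1 the count was 2.

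At the medium doses the 6 replicated extracts gave 60 tests of these genes, of which 6 were called as higher, 3 as lower and 51 not at all. Of the 6 higher calls 5 were of ALDH1L2. Dried ginger had 2 calls, ALDH1L2 and ASNS, beside 6.15% of all genes. Sayeok-tang had 1 (ALDH1L2), beside 10.8%, and fresh ginger 1 (ALDH1L2), beside 0.77%. Scutellaria had 2, ALDH1L2 higher and MTHFD2 lower, beside 8.9%. Pinellia had 2, ALDH1L2 higher and PSPH lower, beside 7.17%, and Bojungikgi-tang 1, PHGDH lower, beside 1.94%. Several of these calls rest on 1 library: Pinellia had 0 without its medium library 1 or vehicle library 3 and 1 without its medium library 3, Scutellaria kept 1 without its medium library 2 or 3 or vehicle library 2, and PHGDH with Bojungikgi-tang was lost without either of its libraries or vehicle library 2 or 3. ALDH1L2 with fresh ginger at the medium dose (28.4, 24.0 and 29.4 CPM) kept its call when the library that stood apart was left out, and lost it in each of the other 5 fits that left out 1 library.

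At the low doses most genes lay slightly below vehicle. All 6 replicated extracts had PHGDH, PSAT1, PSPH, SHMT2, MTHFD2, MTHFD1L, ASNS and PCK2 below vehicle, by at most 0.25 on the log2 scale, and 18 of the 60 tests were called lower and 3, all of ALDH1L2, higher. MTHFD2 was called lower in 5 of the 6. Because these comparisons share the same 3 vehicle libraries, they are not independent of each other. Vehicle libraries also carry a prefix of their own in the sample descriptions. An offset of those libraries and an effect of the extracts cannot be told apart here. MTHFD2 was at 323 CPM in vehicle library 2 and at 304 and 305 CPM in the others, and its count of lower calls over all 18 comparisons fell from 7 to 2 without that library. The counts per extract were 6 for Bojungikgi-tang (5 lower, beside 6.94% of all genes called), 5 for fresh ginger (all lower, beside 6.48%), 4 for Pinellia (all lower, beside 5.51%), 3 for Scutellaria (2 lower, beside 8.89%) and 3 for Sayeok-tang (2 lower, beside 8.34%). Dried ginger had none, beside 3.6%. For that 0, edgeR's unadjusted p was under 0.05 in 8 genes and DESeq2 called 5. Left-out libraries moved several of these: Bojungikgi-tang to 2 without its low library 2 and to 3 without its low library 3, fresh ginger to 1 without the library 2 that stood apart and to 2 without its low library 3 or vehicle library 2 or 3, Sayeok-tang to 1 without vehicle library 2, and Scutellaria to 1 without its low library 3 or vehicle library 3.

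ALDH1L2 went the other way, against the same vehicle libraries and with the same limit. It was above vehicle in all 18 comparisons and called higher in 14, by 0.12 to 1.95. In vehicle its libraries were at 22.7, 23.0 and 19.3 CPM, and vehicle library 3 was the lowest of all 60. The 51 tested libraries that held an extract were all above that library, and the count of calls fell from 14 to 8 when it was left out. With Scutellaria, ALDH1L2 was at 26.8, 26.5 and 25.5 CPM at 7.6 µg/mL, a rise of 0.27 ± 0.06 (adjusted p = 0.00459), which became 0.20 (adjusted p = 0.0558) without vehicle library 3. With Sayeok-tang at the medium dose it was at 29.2, 27.3 and 29.3 CPM, a rise of 0.39 ± 0.06 (adjusted p = 3.07e-05) that stayed called in every alternative run.

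Within an extract, the difference of high against low dose is between groups without vehicle, and these groups share no library between extracts. The SE and p-values also draw on the vehicle libraries and the other extract in the same fit. Dried ginger raised 9 of 10 genes between 20 and 500 µg/mL (32.8% of all genes called), from 0.32 ± 0.05 for PSPH to 1.77 ± 0.07 for ALDH1L2. Scutellaria raised 9 of 10 between 7.6 and 190 µg/mL (31%), with PCK2 at 1.59 ± 0.04, ALDH1L2 at 1.55 ± 0.06, MTHFD2 at 0.91 ± 0.03 and PHGDH at 1.12 ± 0.04. Fresh ginger raised 8 (3.67%), led by ALDH1L2 at 0.76 ± 0.07, PCK2 at 0.74 ± 0.06 and ASNS at 0.70 ± 0.04. Its call of PSPH (0.20 ± 0.05, adjusted p = 0.00907) is lost without high library 2 (adjusted p = 0.0834) or low library 3 (adjusted p = 0.0678).

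Sayeok-tang raised 7 (7.58% of all genes), with ALDH1L2 at 0.50 ± 0.06, ASNS at 0.47 ± 0.04 and PCK2 at 0.46 ± 0.05. Bojungikgi-tang raised PHGDH, PSAT1, ASNS and PCK2 by 0.22 to 0.26 (0.712% of all genes), and none of the 4 calls held when its low library 2 was left out, 1 without its high library 3 and 2 without its low library 3. Pinellia moved none (0.0663% of all genes): the log2 differences ran from -0.06 to 0.13, edgeR's unadjusted p was under 0.05 in 2 genes and DESeq2 called 0. ALDH1L2, ASNS and PCK2 ranked 1 to 4 by log2 difference in all 6 extracts. SHMT1 ranked 8 to 10, and SHMT2 ranked 7 to 9.

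**Figure D4:**
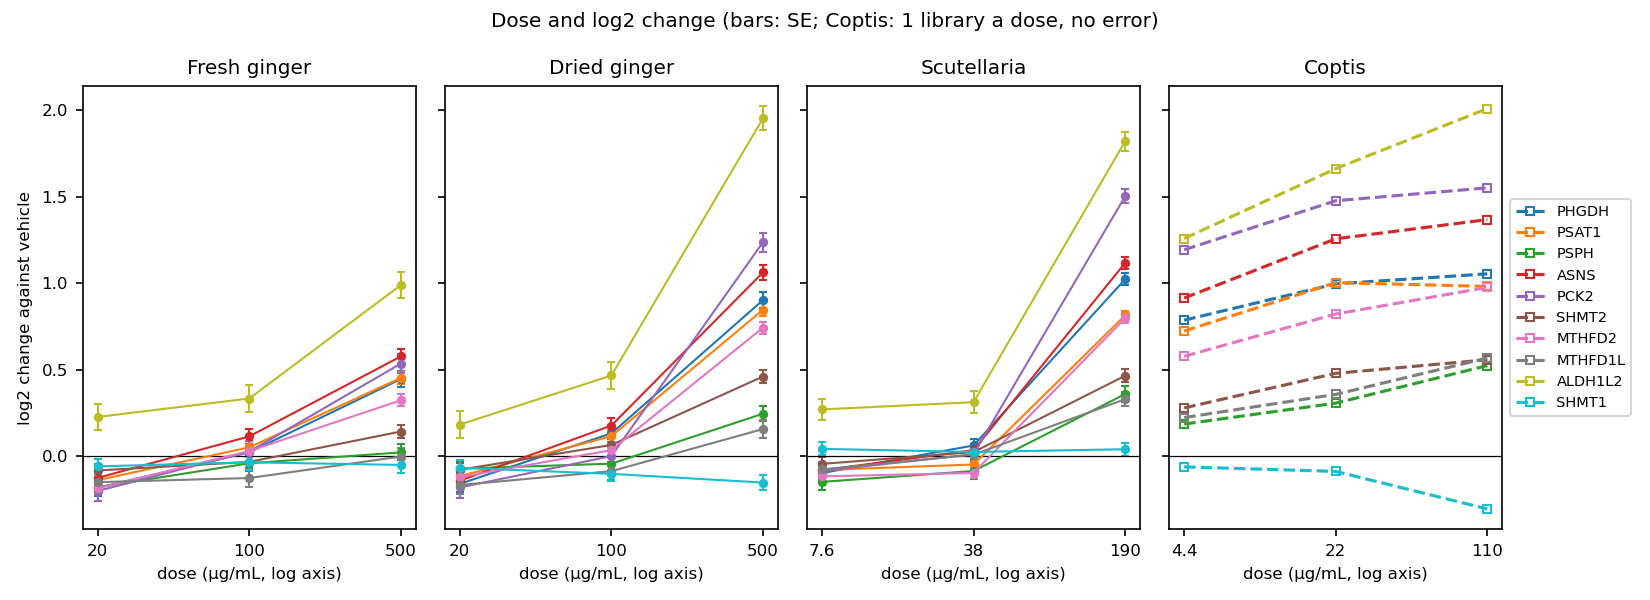
Log2 change against vehicle of each gene at 3 doses of fresh ginger, dried ginger, Scutellaria and Coptis, with dose on a log axis. Bars are SE, and Coptis has 1 library per dose with no error. In fresh ginger, dried ginger and Scutellaria most of the change lies between the medium and high dose, while in Coptis ALDH1L2 stands at 1.26 at 4.4 µg/mL.

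Fresh and dried ginger are preparations of the same rhizome and were given at the same nominal doses. At 500 µg/mL dried ginger was above fresh ginger for 9 of the 10 genes (22.5% of all genes called). The libraries did not overlap in any of the 10, SHMT1 included. The share of all genes without overlap was not computed, and a lack of overlap is not a call. Dried ginger low against vehicle had 9 of 10 without overlap and 0 called. The differences were 0.97 ± 0.07 for ALDH1L2 (adjusted p = 1.4e-11), 0.70 ± 0.05 for PCK2 (adjusted p = 4.22e-11), 0.49 ± 0.04 for ASNS (adjusted p = 3.81e-10) and 0.46 ± 0.05 for PHGDH (adjusted p = 1.69e-08). MTHFD1L had the smallest, 0.16 ± 0.05 (adjusted p = 0.0257), and lost its call in 4 of the 6 fits that left out 1 library. SHMT1 differed by -0.10 ± 0.04 (adjusted p = 0.101). With the replicate number as a block, as the pairing of these libraries allows, it was called, at -0.11 (adjusted p = 0.0431).

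At the lower doses these 10 genes did not tell the ginger preparations apart in the main fit, at this depth and number of libraries. At 100 µg/mL no gene of the 10 was called (0.481% of all genes), with differences of -0.07 to 0.13 and standard errors of at most 0.08. For that 0, edgeR's unadjusted p was under 0.05 in 2 genes and DESeq2 called 0. Without the fresh ginger library 2 that stood apart, PHGDH was called (0.20, adjusted p = 0.0272). At 20 µg/mL none was called either (0% of all genes), with differences of -0.04 to 0.11. There edgeR's unadjusted p was under 0.05 in 1 gene, and DESeq2 called 0 of the 10 and 2 of all genes.

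The contrast of dose differences asks whether the step from 20 to 500 µg/mL was larger in dried than in fresh ginger. It was for 7 genes (11.2% of all genes called): ALDH1L2 by 1.01 ± 0.10, PCK2 by 0.68 ± 0.08, ASNS by 0.50 ± 0.06, PHGDH by 0.43 ± 0.07, PSAT1 by 0.37 ± 0.05, MTHFD2 by 0.36 ± 0.05 and SHMT2 by 0.31 ± 0.05. All 7 stayed called in every alternative run. MTHFD1L (0.18 ± 0.07), PSPH (0.12 ± 0.07) and SHMT1 (-0.09 ± 0.06) were not called.

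**Figure D5:**
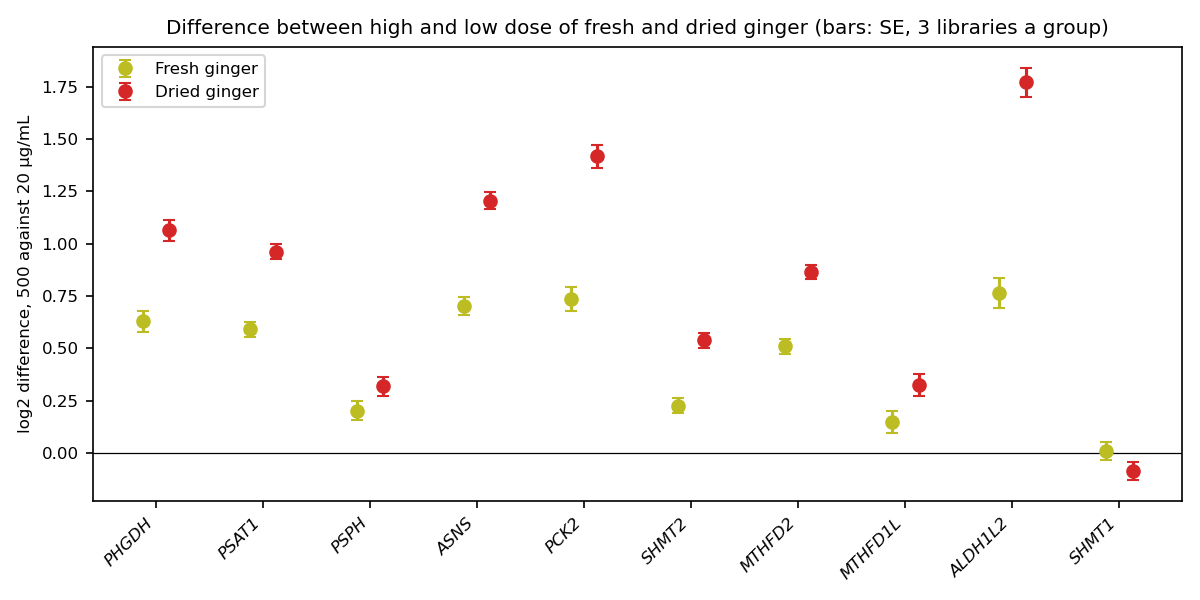
Log2 difference between 500 and 20 µg/mL for each gene, in fresh and in dried ginger (3 libraries per group, bars are SE). Dried ginger lies above fresh ginger for every gene but SHMT1, and the gap is widest for ALDH1L2, at 1.77 against 0.76.

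Sayeok-tang and Bojungikgi-tang were compared at 500 µg/mL. Sayeok-tang was above Bojungikgi-tang for 7 genes (2.05% of all genes called), by 0.17 ± 0.04 for MTHFD2 to 0.32 ± 0.06 for ALDH1L2. Without Bojungikgi-tang high library 2 the count was 4, with ALDH1L2 (adjusted p = 0.0876), MTHFD2 (adjusted p = 0.175) and PCK2 (adjusted p = 0.0518) lost. The step from low to high dose was not called as different between the formulas for any of the 10 (0.275% of all genes), with edgeR's unadjusted p under 0.05 in 7 genes and 1 call, PSAT1, by DESeq2. Dried ginger at 500 µg/mL was also set against the other extracts given at that dose, in a fit of all 60 libraries. It was above Sayeok-tang for 9 genes (27.6% of all genes), above Bojungikgi-tang for 9 with SHMT1 lower (28.1%), and above Pinellia for 9 with SHMT1 lower (35%). ALDH1L2 led each, by 1.19 ± 0.06, 1.51 ± 0.07 and 1.74 ± 0.06. SHMT1 was lower in dried ginger than in Bojungikgi-tang by 0.19 ± 0.04 (adjusted p = 0.000349) and than in Pinellia by 0.13 ± 0.04 (adjusted p = 0.00365).

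Coptis, with 1 library per dose, had the highest level of 7 of the 10 genes among all 60 libraries at its high dose, and the lowest of SHMT1. At 110 µg/mL ALDH1L2 was at 88.8 CPM, PCK2 at 109 CPM, ASNS at 328 CPM, MTHFD2 at 611 CPM, PHGDH at 154 CPM and PSAT1 at 723 CPM. These 6 were past 1.5-fold and outside the vehicle range, against 7.28% of the 10973 genes that averaged 5 CPM or more. Their log2 ratios to the vehicle mean (0.5 CPM added) ran from 0.98 for MTHFD2 to 2.01 for ALDH1L2, and SHMT1 was at 55.3 CPM, a log2 ratio of -0.31.

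At 22 µg/mL the same 6 genes were past 1.5-fold (2.81% of all genes), with ALDH1L2 at 69.7 CPM. At 4.4 µg/mL, the lowest dose in the series, 5 were (0.92%): ALDH1L2 at 52.5 CPM (1.26), PCK2 at 84.7 CPM (1.19), ASNS at 240 CPM (0.91), PHGDH at 128 CPM (0.79) and PSAT1 at 605 CPM (0.72). MTHFD2, at 463 CPM and a log2 ratio of 0.58, was just under the limit. Mitochondrial transcripts made up 15.9% and 15.0% of counts in the medium and low Coptis libraries, against 9.92% in the high one and 8.58% to 9.38% in vehicle. The part of that difference in these values was not tested. No library repeats any Coptis dose, so the spread between cultures is unknown.

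Zizyphus had none of the 10 genes past 1.5-fold at 500 µg/mL (0.255% of all genes), 100 µg/mL (0.164%) or 20 µg/mL (0.219%). ALDH1L2 stood at 24.3, 24.4 and 24.6 CPM, above the highest vehicle library in each, by log2 ratios of 0.16 to 0.18. PSPH stood between 38.8 and 39.8 CPM, below the lowest vehicle library. SHMT1 at 500 µg/mL was at 75.5 CPM, the highest of all 60 libraries and above the highest vehicle library (70.5 CPM).

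Over group means 9 of the 10 genes ran together and SHMT1 did not. Over the means of the 19 replicated groups, log2 levels of the 36 pairs without SHMT1 correlated with r between 0.84 and 1.00, with a median of 0.97. The 9 pairs with SHMT1 had r between -0.27 and 0.17. The groups share 1 cell line, 1 table and its scaling, and the values are a description. The widest differences between groups were at the high doses, so r says little about the low doses. There ALDH1L2 was above vehicle in all 6 replicated extracts and the rest of the 9 below it. ASNS and PSAT1 were the closest pair, each ranked 1 of 10972 genes for the other. MTHFD1L with ALDH1L2 was the loosest of the 36. There MTHFD1L ranked 822 for ALDH1L2, and ALDH1L2 ranked 280 for MTHFD1L, so many genes outside the 10 lay closer. Of 10972 genes compared, those nearest to each of the 10 in this measure, leaving the 10 themselves out, were GPT2 for PHGDH (r = 0.99), STC2 for PSAT1 (0.99), JDP2 for PSPH (0.96), CBS for ASNS (0.99), CLIC4 for PCK2 (0.99), BCAT1 for ALDH1L2 (0.99), GARS1 for MTHFD2 (0.99), LONP1 for SHMT2 (0.99), C19orf48P for MTHFD1L (0.96) and ANAPC7 for SHMT1 (0.84).

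The transcript of ATF4 itself rose at the high dose of 3 of the 6 replicated extracts. ATF4 was at 255, 268 and 256 CPM in vehicle, at 338, 324 and 335 CPM with dried ginger at the high dose and at 344, 355 and 334 CPM with Scutellaria. The rises were 0.35 ± 0.04 (adjusted p = 1.57e-07) and 0.41 ± 0.03 (adjusted p = 1.58e-13). With fresh ginger it rose by 0.20 ± 0.04, and with Sayeok-tang its difference of 0.08 ± 0.03 was not called (adjusted p = 0.09). ATF4 is regulated mainly at translation, which these data do not measure.

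Other genes of folate, glycine and methionine metabolism, a list of 30 of which 27 were tested, moved in both directions. With dried ginger at the high dose 3 rose and 11 fell, beside 39.2% of all genes called, with a list median of -0.08 on the log2 scale. CBS, which condenses serine with homocysteine, rose by 1.24 ± 0.05, AMT of the glycine cleavage system by 0.71 ± 0.20 from a low level, and MAT2A, which makes S-adenosylmethionine, by 0.21 ± 0.04. TYMS, the thymidylate synthase, fell by 0.42 ± 0.05 and GGH, which trims folate polyglutamates, by 0.39 ± 0.07. With Scutellaria 4 rose and 11 fell, beside 40.3% of all genes, with a median of -0.06. CBS rose by 1.36 ± 0.05 and AMT by 0.74 ± 0.23, while SDS, a serine dehydratase, fell by 0.49 ± 0.11 and SLC19A1, the reduced folate carrier, by 0.28 ± 0.06. CBS has a near-identical annotated copy that held 0 to 18 counts per library, against 428 to 2103 for CBS, so its level is uncertain by that much.

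For the same list fresh ginger gave 2 up and 7 down (13.4% of all genes called), Sayeok-tang 2 up and 7 down (18.9%), Bojungikgi-tang 2 up and 0 down (3.73%) and Pinellia none either way (8.93%). CBS rose in fresh ginger (0.57 ± 0.06), Sayeok-tang (0.46 ± 0.05) and Bojungikgi-tang (0.22 ± 0.06), and SDSL, SDS and MTHFS were among those that fell in fresh ginger and Sayeok-tang.

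Other genes of amino acid synthesis and anaplerosis, a list of 18 of which 16 were tested, were split. Dried ginger (39.2% of all genes called) and Scutellaria (40.3%) at the high dose each raised 7 and lowered 3. Fresh ginger (13.4%) raised 4 and lowered 2, Sayeok-tang (18.9%) raised 5 and lowered 4, Pinellia (8.93%) lowered 3, and none was called with Bojungikgi-tang (3.73%). GPT2, the mitochondrial alanine aminotransferase, rose by 1.05 ± 0.05 and 1.07 ± 0.05 with dried ginger and Scutellaria. BCAT1, a cytosolic branched-chain aminotransferase, rose by 1.03 ± 0.04 and 0.94 ± 0.04. ASS1, the argininosuccinate synthase, rose by 0.77 ± 0.07 with dried ginger, and PYCR1, of proline synthesis, by 0.73 ± 0.04 with Scutellaria. PC, the pyruvate carboxylase, fell by 0.49 ± 0.05 and 0.31 ± 0.05, and the asparaginase ASRGL1 by 0.67 ± 0.09 and 0.37 ± 0.08. In each of these pairs of values dried ginger comes first. The doses of the extracts differ, so they are not compared.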

How the data were processed

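The values deposited by the authors are expected counts from RSEM, 1 per gene and library, with no normalisation. Per the submitters' processing notes, reads were handled with FastQC 0.11.9, Trim Galore 0.6.5, STAR 2.7.3a and RSEM 1.3.3 on hg38 (GRCh38). The annotation release is not given in the sources used here. Of its 269 value columns 60 belong to these samples, and the other 209 were not used. Of the non-zero values 24.4% were not whole, and all were rounded. IDs were matched to symbols for 56558 of 60675, with lengths and positions from GENCODE 29.

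Each fit held 2 extracts and the 3 vehicle libraries. The 2 extracts, called a set here, share the leading number of their sample descriptions. The labels do not say what that number stands for. Vehicle libraries carry a prefix of their own, so every comparison with vehicle also crosses it. Its part in those comparisons was not tested. The 3 comparisons of dried ginger with extracts of other sets used all 60 libraries. Genes were filtered with filterByExpr of edgeR 4.0.16 (minimum count 10), scaled by TMM and tested by the quasi-likelihood F-test of edgeR (glmQLFit with robust set, R 4.3.3), with Benjamini-Hochberg adjustment over all genes tested, in 33 comparisons. The procedure was tested on simulated data. Replicate numbers recur across groups. Every same-numbered pair deviated together in 2 comparisons of 3 pairs. These were fresh ginger high against low (r = 0.161 to 0.324) and dried against fresh ginger at the high dose (r = 0.187 to 0.368). The main values given for both come from the fit without a replicate block, so they do not use that pairing. With the replicate number as a block, 8 of the 10 genes were called in the first and 10 in the second. Vehicle against Bojungikgi-tang at the high and medium doses had r over 0.1 in both of their 2 pairs, too few to be taken as paired.

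All 10 genes are named. For each of the 2 pathway lists and each high dose, the rule named up to 3 called genes in each direction with the largest log2 change and a mean of at least 1 CPM. Some genes this rule names are not reported here. The genes and lists were chosen with earlier results of these data known. Alternatives were DESeq2 1.42.0, RLE size factors, no filter on low counts, a fit of all 60 libraries (or, for comparisons across sets, of the groups compared and vehicle), the replicate number as a block, and each library left out. Depth was 17.51 M to 38.54 M counts per library, with a median of 23.53 M.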

Additional observations from a re-analysis of the deposited data

Results flagged for a closer look

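The step from 20 to 500 µg/mL differed between dried and fresh ginger, by a test of the difference itself, in 7 of the 10 genes. The log2 differences of the steps, dried minus fresh, were 1.01 for ALDH1L2, 0.68 for PCK2, 0.50 for ASNS, 0.43 for PHGDH, 0.37 for PSAT1, 0.36 for MTHFD2 and 0.31 for SHMT2. All 7 rose between these doses in both preparations, so the difference is one of size.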

How the results depend on the processing

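Over the alternatives no call of the 10 genes changed direction, and the median log2 change over all genes shifted by at most 0.01. All calls stayed for Sayeok-tang, fresh ginger and Scutellaria at the high dose against vehicle, and 9 of 10 for dried ginger. The count of genes called in Bojungikgi-tang medium against vehicle (1) became 0 in the fit of all 60 libraries, 2 with no filter and 0 with the replicate block. Fresh ginger low (5) became 8, and dried ginger medium (2) became 4, in the fit of all 60 libraries. Dried ginger low (0) became 5 with DESeq2, 6 in the fit of all 60 libraries, 3 with no filter, 3 with the replicate block and 1 with RLE size factors. The contrast of dose steps between Sayeok-tang and Bojungikgi-tang (0) became 1 with DESeq2. Coptis low had 2 genes past 2-fold, against 5 past 1.5-fold. The cause was not tested. With the replicate block no other count of called genes moved by over 1.5 times, and of 330 gene-level results 322 kept their call, 2 were lost and 6 gained. Correlations of same-numbered libraries ran from -0.246 to 0.368 over 31 comparisons. Every same-numbered pair had r over 0.1 in 4 of them: 2 ginger comparisons, and Bojungikgi-tang high and medium against vehicle (2 pairs each). In the others at least 1 pair fell short, which does not show that those libraries are unrelated.

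With 1 library left out, counts of called genes ran from 1 to 4 for Sayeok-tang low, 0 to 1 for Bojungikgi-tang medium, 2 to 6 for Bojungikgi-tang low, 0 to 1 for fresh ginger medium, 1 to 4 for fresh ginger low, 1 to 2 for dried ginger medium, 0 to 1 for dried ginger low, 2 to 3 for Pinellia high, 0 to 2 for Pinellia medium, 1 to 2 for Scutellaria medium and 1 to 3 for Scutellaria low, all against vehicle. They ran from 0 to 3 for Bojungikgi-tang high against low, 4 to 7 for Sayeok-tang against Bojungikgi-tang high, 0 to 1 for dried against fresh ginger medium and 0 to 1 for the contrast of dose steps between Sayeok-tang and Bojungikgi-tang. Where 1 Bojungikgi-tang library was left, its spread was assumed to be that of the other groups.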

Other observations

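In the single Coptis libraries neighbouring amino acid genes also stood above vehicle. At 110 µg/mL CBS was at 80.3 CPM against a vehicle mean of 23.9 CPM, GPT2 at 59.3 against 23.7, BCAT1 at 259 against 116 and PYCR1 at 161 against 84.1. At 4.4 µg/mL all 4 were still past 1.5-fold, with log2 ratios of 1.12 for CBS, 0.87 for GPT2, 0.61 for BCAT1 and 0.59 for PYCR1. PC lay below vehicle at 110 µg/mL, at 26.1 CPM against 40.6. With 1 library per dose these values have no replicate error.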
